A study of Mus musculus with 2 samples.

Results

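The genes described here are Mfn1, Mfn2, Opa1, Dnm1l, Fis1, Mff, Rhot1 and Rhot2, which encode the core proteins of mitochondrial fusion, fission and transport. They were taken by name, and the peaks that the authors' annotation table assigns to those symbols were collected from the anti-FLAG peak list. This gave 31 of 99797 peaks, assigned to 7 of the 8 genes, and Mfn2 had 0. The data are CUT&Tag, in which an antibody directs a DNA-cutting transposase to the chromatin where its target sits. Untreated CamK-PARIS mice on the C57BL/6J strain provided hippocampal tissue for 1 anti-FLAG library and 1 IgG library. FLAG is a short peptide tag, and the antibody was used to capture PARIS, a zinc-finger transcriptional repressor known for acting on the gene of the mitochondrial regulator PGC-1alpha. The labels do not give the age of the animals, whether tissue was pooled or the construct behind the genotype name, and no library from mice without that genotype was analysed here. With 1 library per antibody there is no replicate error, no test between conditions, and sequencing depth is unknown from the files.

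Mitochondria in neurons fuse, divide and travel along microtubules. Mfn1 and Mfn2 are the mitofusins, GTPases that join outer membranes, and Opa1 is the GTPase that joins inner membranes and shapes cristae. Dnm1l encodes Drp1, the GTPase that constricts mitochondria during division, and Mff and Fis1 are outer-membrane proteins that act with it. Rhot1 and Rhot2 encode Miro1 and Miro2, calcium-binding GTPases that couple mitochondria to motor proteins for movement along axons and dendrites.

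Each value below is the authors' maximum signal, the highest read coverage inside a peak, on a scale the sources used here do not state. Over the whole list it had a median of 101 and a range from 5 to 2395. A percentile is the rank of a peak's maximum signal among all peaks of the list. Peaks whose coverage is nearly the same from end to end are called constant-height, meaning that the total signal is at least 99% of the maximum signal times the width. Of all peaks 63.3% are of this kind, and of the 31 peaks at these genes 16 are. A transcription start site (TSS) is the annotated first base of a transcript, and positions are on mm10 with GENCODE M21 gene models. The distance to a TSS is the authors' unless stated otherwise.

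All 3 fission genes and both transport genes had a peak within 1 kb of a TSS, while of the fusion genes only Mfn1 did. This makes 6 of 8 genes, against 42.4% of the 21938 protein-coding genes, and 7 of 8 had any assigned peak, against 72.6%. These genes have many annotated TSSs, between 6 and 17 each against a median of 3 over protein-coding genes. Among the 5967 protein-coding genes with at least 6 TSSs, 67.0% had a peak within 1 kb of one, a share near that of the 8 genes. Any assigned peak was present in 90.1% of these 5967 genes, also near the 7 of 8. Without constant-height peaks the count was 5 of 8, against 28.8% of all protein-coding genes and 48.3% of those with at least 6 TSSs, since both Dnm1l peaks are of constant height. The most upstream base of the gene lay inside a peak for Mfn1, Fis1, Mff and Rhot1, which is 4 of 8 against 20.4% of all protein-coding genes and 30.0% of those with at least 6 TSSs. A peak overlapped the gene body of 6 of the 8 genes, against 63.0% of protein-coding genes. The 8 genes are longer, with a median of 38.9 kb against 17.4 kb over protein-coding genes. Of protein-coding genes between 20 and 50 kb only 24.3% had no peak over the body, and between 50 and 100 kb only 10.1%. When only peaks with a maximum signal above the list median were kept, 3 of 8 genes (Mfn1, Mff and Rhot2) had a peak within 1 kb of a TSS, against 30.1% of protein-coding genes under the same filter. In the top 10% by maximum signal only Mff did, against 12.7%. The Mfn1 peak is narrow and lies mostly before the gene: with peaks at least 200 bp wide, or with at least 50% of the peak inside the gene body, 5 of 8 genes remained and none of them was a fusion gene (37.4% and 36.6% of protein-coding genes). The groups hold 2 or 3 genes each, so no difference between fusion, fission and transport genes was tested.

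**Figure D1:**
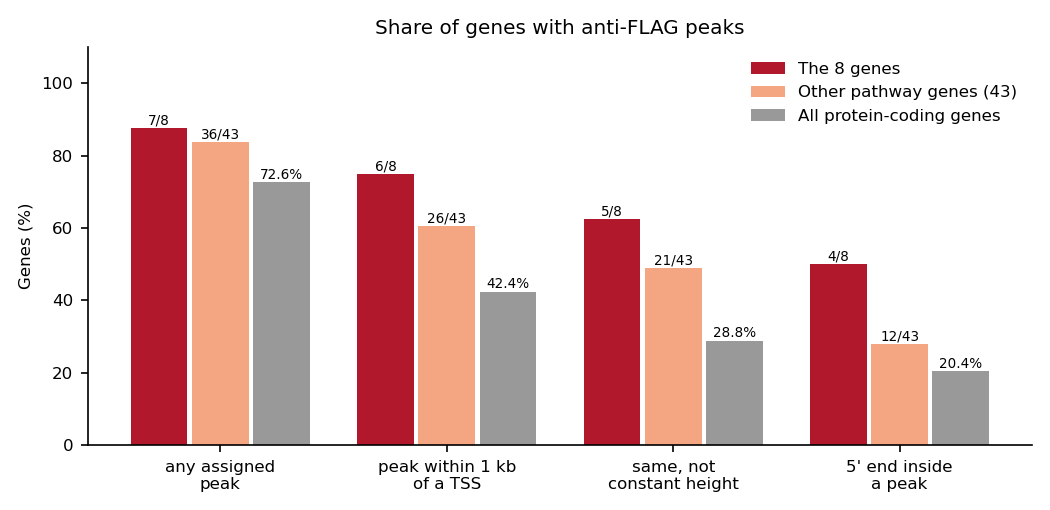
Percentage of genes with anti-FLAG peaks by 4 criteria, for the 8 genes, 43 other genes of the pathway and all 21938 protein-coding genes; numbers above bars are counts or percentages. The 8 genes have 7, 6, 5 and 4 members past the criteria, from left to right.

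**Figure D2:**
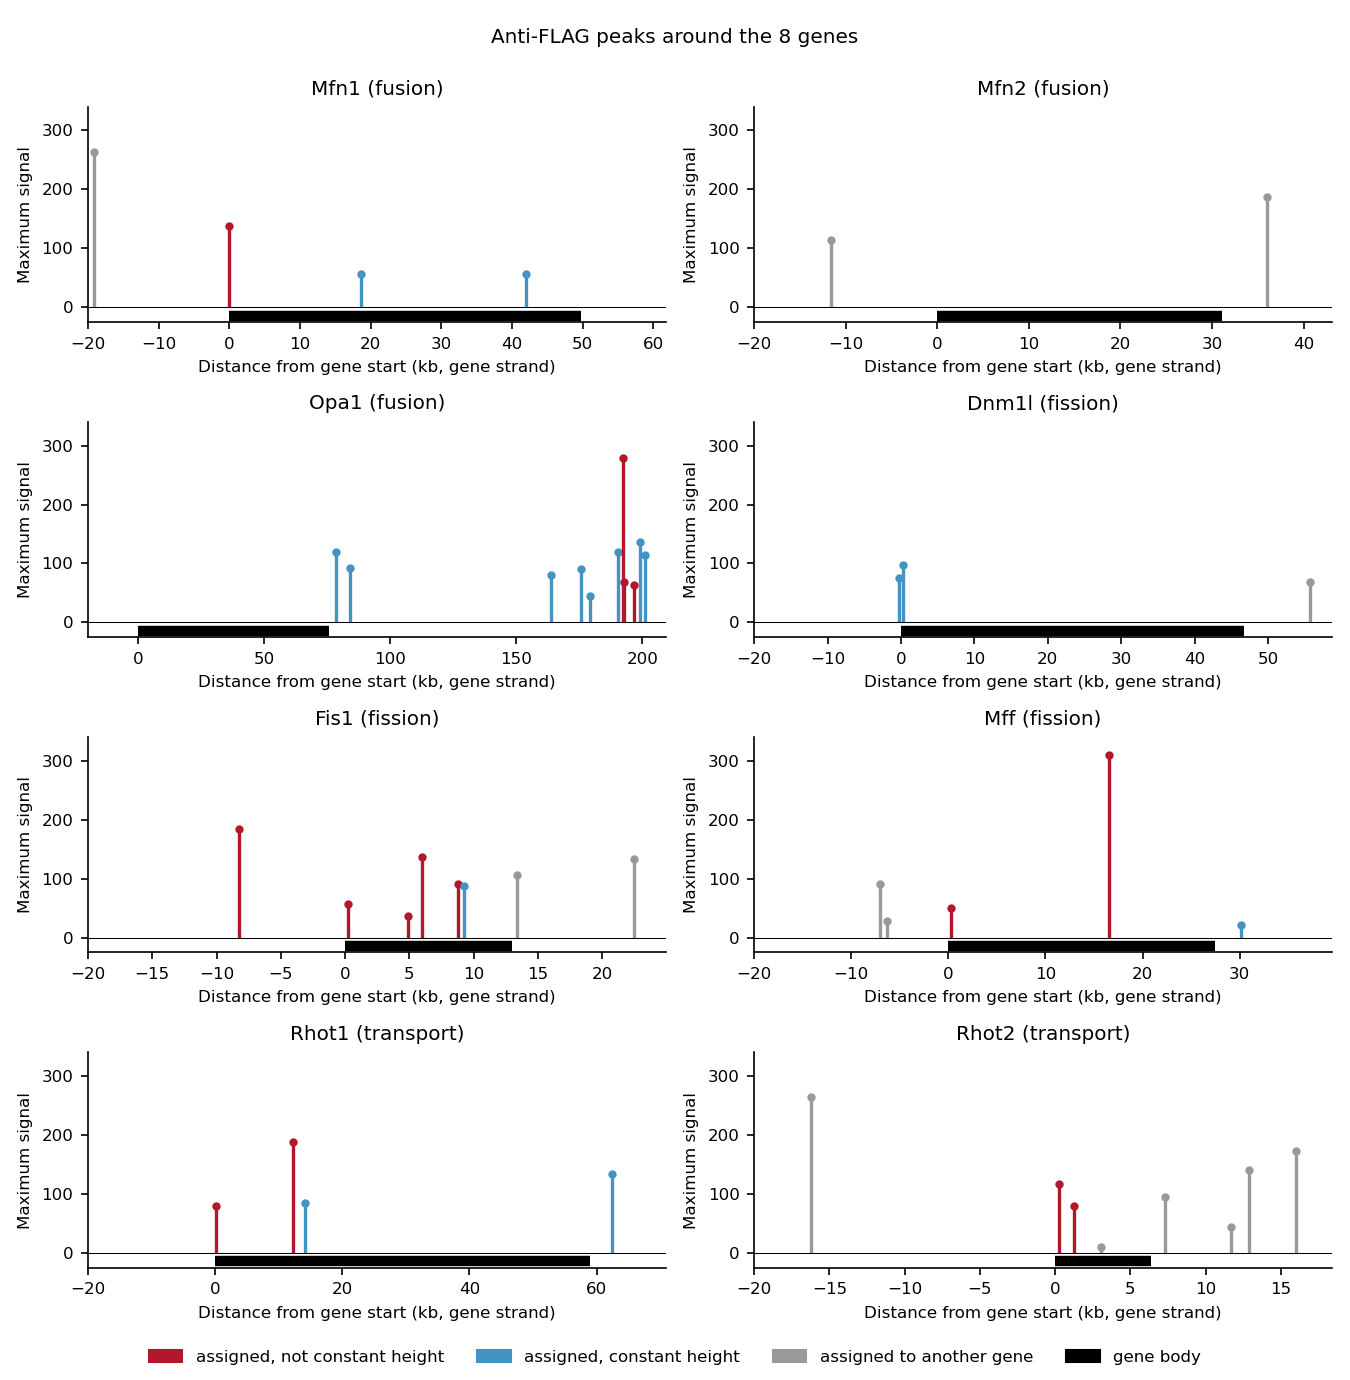
Peaks around each gene, drawn at their distance from the gene start in kb on the gene's strand, with the authors' maximum signal as height and the gene body as a black bar; red peaks are not of constant height, blue ones are, and grey ones were assigned to another gene. No peak stands over the bodies of Mfn2 and Opa1, and the tallest peaks assigned to these genes are those of Mff (309) and Opa1 (278).

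Among the fusion genes, Mfn1 (ENSMUSG00000027668, chromosome 3, 32529465 to 32579239, plus strand) had 3 peaks. The peak at 32529316 to 32529498 covered the gene start, from -149 to 33 bp relative to it, and reached 138 (percentile 76.8). The other 2 lay in introns 7 and 16 of 17, at 32548106 to 32548218 and 32571088 to 32571756, and reached 57 and 56. Both were of constant height, at percentiles 19.8 and 19.2. Mfn1 thus carried its only peak above the list median directly on its first exon and the bases before it.

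Mfn2 (ENSMUSG00000029020, chromosome 4, 147873599 to 147904704, minus strand) had no peak assigned to it and none over its 31.1 kb body. The nearest peak to its start lay 11601 bp upstream, at 147916305 to 147916411, was assigned to Plod1 and reached 114. On the other side, a peak of 187 at 147868576 to 147868818, assigned to Miip, began 4781 bp beyond the end of the gene. Of the 5152 protein-coding genes between 20 and 50 kb, 24.3% had no peak over the body. In the same size class 18.9% had none assigned and 51.9% had none within 1 kb of a TSS. Mfn2 has 6 annotated TSSs. Of protein-coding genes with at least 6, 90.1% had an assigned peak and 67.0% had one within 1 kb of a TSS. Because depth is unknown, a missing peak means that none was called in this library, not that the protein is absent.

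Opa1 (ENSMUSG00000038084, chromosome 16, 29579334 to 29654884, plus strand) had the most assigned peaks of the 8 genes, 11, and none of them touched the gene. Its 75.6 kb body was free of peaks, which was so for 10.1% of the 2515 protein-coding genes between 50 and 100 kb. The nearest peak to the gene start was 62840 bp upstream and assigned to Atp13a4, a distance at percentile 92.9 of protein-coding genes. The 11 peaks all lay beyond the end of the gene, the first 2858 bp past it and the last 201370 bp from the start. After 2 peaks close to the gene came a gap of 79.7 kb, and the other 9 peaks lay within 37.8 kb at 29742952 to 29780704. GENCODE M21 places the noncoding gene Gm49636 among them, and the constant-height peak of 90 at 29754916 to 29755253 lies 604 bp before its start, although the authors' table gives it to Opa1 at 138292 bp. All 9 lie nearer to the Gm49636 start than to Opa1, from whose assigned TSS they stand 126328 to 163759 bp away. Beyond the last peak, the noncoding gene Gm26834 starts after 30354 bp, and the next protein-coding gene, Hes1, after 283680 bp. Whether any of these peaks relates to Opa1 was not tested. The maximum signal ran from 45 to 278 with a median of 93, and 8 of the 11 were of constant height. The tallest, at 29771139 to 29771900, was not (percentile 97.0).

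The promoters of the fusion genes are shown because that of Mfn1 meets a peak while those of Mfn2 and Opa1 do not, and that of Dnm1l because 2 peaks flank its GENCODE start. Each line gives 250 bases ending just before the most upstream RefSeq start of the gene (GRCm38.p6, strand of the gene). Capitals mark matches on either strand to a GC box (GGGCGG), an ETS core (CGGAAG) or the palindrome bound by NRF1.

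Mfn1, chr3:32529232-32529481, plus: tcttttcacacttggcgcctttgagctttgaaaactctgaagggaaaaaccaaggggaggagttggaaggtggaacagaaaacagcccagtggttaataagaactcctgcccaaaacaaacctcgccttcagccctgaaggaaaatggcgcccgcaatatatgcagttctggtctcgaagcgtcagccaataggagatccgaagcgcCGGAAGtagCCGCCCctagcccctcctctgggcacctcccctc
Mfn2, chr4:147904910-147905159, minus: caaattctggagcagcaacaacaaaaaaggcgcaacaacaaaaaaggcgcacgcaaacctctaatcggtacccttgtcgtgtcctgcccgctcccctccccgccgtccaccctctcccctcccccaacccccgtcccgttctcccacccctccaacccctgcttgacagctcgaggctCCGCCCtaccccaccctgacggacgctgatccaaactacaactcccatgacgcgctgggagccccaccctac
Opa1, chr16:29579084-29579333, plus: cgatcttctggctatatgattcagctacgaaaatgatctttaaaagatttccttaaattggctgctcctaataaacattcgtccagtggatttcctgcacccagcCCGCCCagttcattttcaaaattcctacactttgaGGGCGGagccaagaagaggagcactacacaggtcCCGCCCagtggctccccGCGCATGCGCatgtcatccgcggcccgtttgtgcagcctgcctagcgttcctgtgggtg
Dnm1l, chr16:16359032-16359281, minus: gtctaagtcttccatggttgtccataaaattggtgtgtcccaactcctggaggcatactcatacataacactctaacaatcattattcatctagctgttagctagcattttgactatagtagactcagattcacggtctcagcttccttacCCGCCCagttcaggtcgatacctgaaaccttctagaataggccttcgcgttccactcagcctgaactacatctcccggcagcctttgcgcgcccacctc

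The Mfn1 stretch, much of which lies in the peak, holds 1 GC box and 1 ETS core. The Mfn2 stretch, outside any peak, holds 1 GC box. That of Opa1, also outside any peak, holds 3 GC boxes and 1 NRF1 palindrome. The Dnm1l stretch lies inside the upstream peak of that gene and holds 1 GC box.

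Among the fission genes, Dnm1l (ENSMUSG00000022789, chromosome 16, 16312230 to 16358959, minus strand) had 2 peaks, one on each side of its start. The upstream peak, at 16358989 to 16359456, ran from -497 to -30 bp and reached 76. The downstream peak, at 16358623 to 16358791, ran from 168 to 336 bp into the gene, in intron 1 of 17, and reached 97. Both were of constant height and below the list median, at percentiles 31.5 and 46.7. The remaining 46.7 kb gene had no other peak, and its GENCODE start was 30 bp from the nearest one. The most upstream RefSeq start, at 16359031, lies inside the upstream peak.

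Fis1 (ENSMUSG00000019054, chromosome 5, 136953275 to 136966234, plus strand) was the most densely covered of the fission genes. Over its 13.0 kb body lay 5 peaks, equal to 38.6 per 100 kb and percentile 96.0 of protein-coding genes, and a sixth stood upstream. GENCODE M21 gives Fis1 separate groups of starts, at the 5' end and near 136962077, where a principal isoform begins. A peak of 57 (136953056 to 136953934) covered the first start and one of 91 (136961804 to 136962365) covered the second. Another TSS peak, of constant height, reached 88 (136962419 to 136962715). The other 3 peaks reached 36, 137 and 185. The one of 36, at 136957964 to 136958375, lay in intron 1 of 4, and its 200 bp summit window was 100% soft-masked as repeat. The one of 137, at 136959105 to 136959478, lay in the same intron. The tallest, 185 (percentile 89.5), was distal, at 136944593 to 136945442, with its summit at -7919 bp from the TSS. At Fis1, the peaks over TSSs were therefore all lower than the intronic peak of 137 and the distal peak.

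Mff (ENSMUSG00000026150, chromosome 1, 82724890 to 82752394, plus strand) had the lowest and the tallest TSS peak of the 8 genes. The peak at the gene start, 82724835 to 82725453, reached only 51 (percentile 16.6) and ran from -55 to 563 bp. It also held a TSS of the noncoding gene C430014B12Rik on the other strand, and this was the only peak within 1 kb of a TSS of the 8 genes that had a TSS of another gene within 1 kb. The peak at 82741005 to 82741825 reached 309, the highest value among all 31 peaks and 3.06 times the list median (percentile 97.9). It lay in intron 5 of 8 of the full-length transcript, and it counts as a TSS peak because its summit lay 13 bp before the start of a retained-intron transcript of Mff. A distal peak of constant height at 82754807 to 82755310 reached 21, the lowest of the 31.

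The summits of 2 peaks away from gene starts carried the highest signals, so their sequences follow: 200 bases around the region of maximum signal, on the strand of the gene (GRCm38.p6), with that region in capitals.

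Mff, chr1:82741520-82741719, plus: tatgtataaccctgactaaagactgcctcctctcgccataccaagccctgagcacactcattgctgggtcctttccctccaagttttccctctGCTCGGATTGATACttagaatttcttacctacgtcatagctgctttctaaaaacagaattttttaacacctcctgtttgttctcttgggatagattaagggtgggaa
Opa1, chr16:29771487-29771686, plus: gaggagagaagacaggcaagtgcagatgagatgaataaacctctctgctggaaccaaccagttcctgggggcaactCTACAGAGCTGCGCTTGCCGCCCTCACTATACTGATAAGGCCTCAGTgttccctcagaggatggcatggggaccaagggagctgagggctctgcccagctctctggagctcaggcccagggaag

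The region of maximum signal spanned 14 bp at Mff and 47 bp at Opa1. The Mff window had a GC content of 43.5% and 3 CpG dinucleotides. The Opa1 window had 57.5% and 2, and 1 GC box stood inside its region of maximum signal. Neither window held the insulin response sequence.

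Of the transport genes, Rhot1 (ENSMUSG00000017686, chromosome 11, 80209019 to 80267907, plus strand) had the widest peak among the 31, 1189 bp at 80208568 to 80209756, which covered its start from -451 to 737 bp. Its maximum was 79 (percentile 33.4), but with that width its total signal stood at percentile 94.7. In intron 2 of 20 lay a taller peak of 188 (80221040 to 80221432, percentile 89.9) and a constant-height peak of 85 (80223045 to 80223315). A constant-height peak of 134 followed downstream of the gene, at 80271360 to 80271507.

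Rhot2 (ENSMUSG00000025733, chromosome 17, 25838457 to 25844851, minus strand) is the shortest of the 8 genes, 6.40 kb. Its peak at 25844509 to 25844687 reached 117 (percentile 62.4) in the untranslated part of exon 1, from 164 to 342 bp, and the GENCODE gene start was not covered, while the RefSeq start at 25844525 was. A broader peak at 25843204 to 25844058 reached 79, with its summit in intron 3 of 18. Both count as TSS peaks through shorter transcripts of Rhot2, at distances of 0 and 298 bp, in that order. A further peak over the body, of constant height and reaching 10, was assigned to Rhbdl1.

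**Figure D3:**
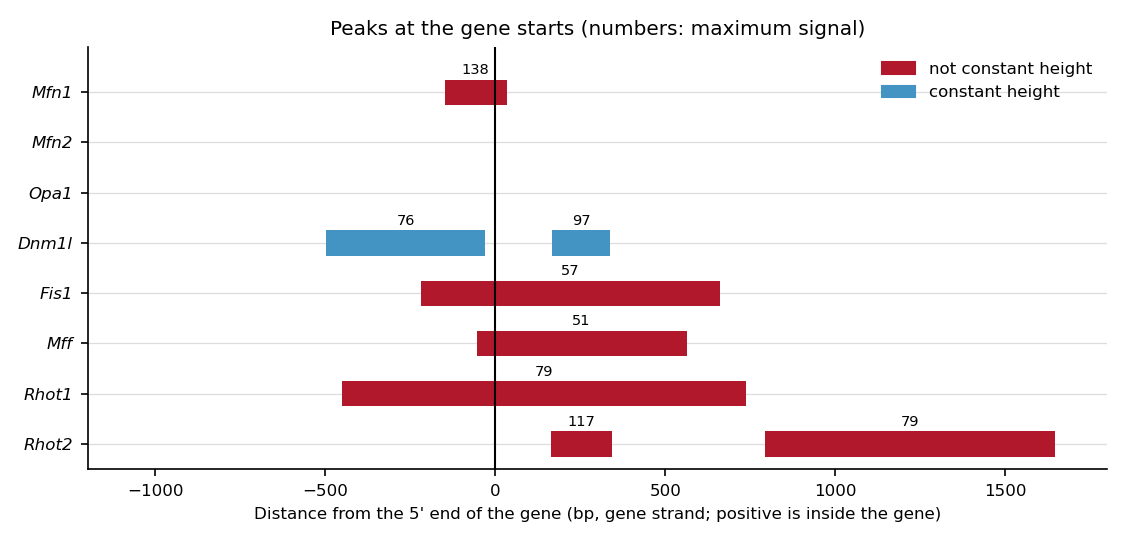
Peaks around the GENCODE 5' end of each gene, as bars by distance in bp on the gene's strand with their maximum signal above, blue where of constant height. Mfn1, Fis1, Mff and Rhot1 have a peak across position 0, those of Dnm1l and Rhot2 stop short of it, and Mfn2 and Opa1 have none.

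By maximum signal, the TSS peaks of these genes were mostly low, and 3 of the 11 belong to Fis1. By total signal their median was 26135 against 33198 for all peaks within 1 kb of a TSS. Several were above that value, among them the Rhot1 start peak (85311) and the intronic Mff peak (83093). Their maximum signal had a median of 88 (range 51 to 309, 11 peaks), against 116 for the 15282 peaks within 1 kb of a TSS in the whole list, and 8 of the 11 were below that value. The 3 at or above it were those of Mfn1 (138), Rhot2 (117) and the intronic peak of Mff (309). Farther than 1 kb the 20 peaks had a median of 91.5 against 99 for all such peaks, and 11 of 20 were below. Only 2 of the 31 peaks were in the top 10% of the list, those of Mff and Opa1. Taking the highest peak of each gene, the percentile had a median of 83.1 over the 8 genes with Mfn2 at 0, against 66.1 over all protein-coding genes. With peaks restricted to 5 kb around a TSS these medians were 54.5 and 26.9, and when signal was divided by width, 62.03 and 65.97. The highest of several peaks depends on how many are assigned, and no comparison with genes of like length or TSS number was made. The order of the genes by their highest peak was Mff, Opa1, Rhot1 (188), Fis1 (185), Mfn1, Rhot2, Dnm1l and Mfn2. Opa1 holds its place only through the authors' assignment of a peak of 278. That peak lay 154938 bp from the assigned TSS and nearer to the start of Gm49636. With no replicate, neighbours in this order such as Rhot1 and Fis1 cannot be separated.

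**Figure D4:**
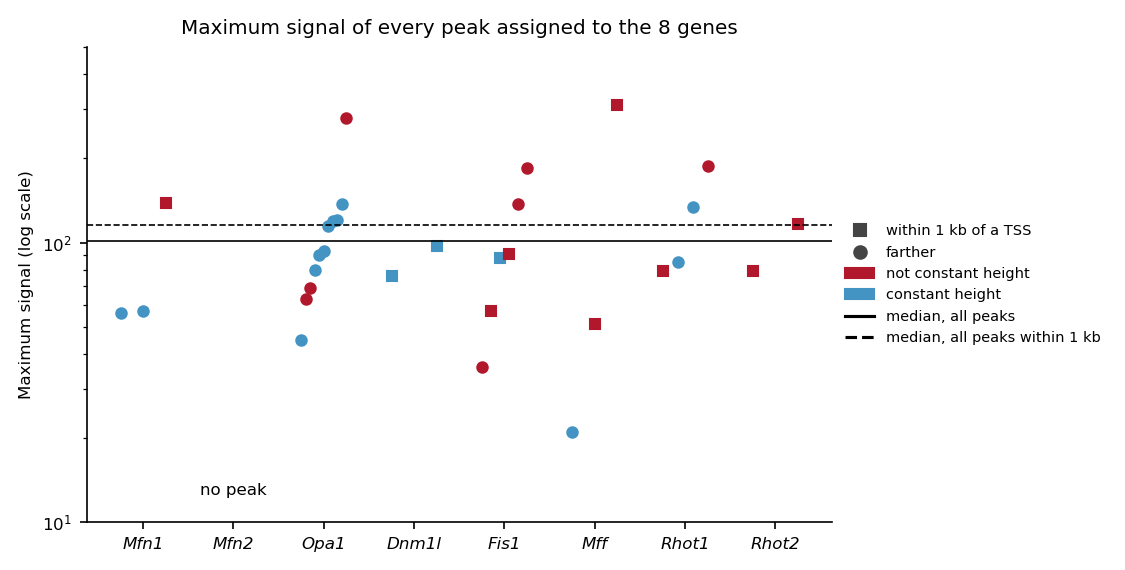
Maximum signal (log scale) of each of the 31 peaks, by gene; squares lie within 1 kb of a TSS, circles farther, blue marks constant height, and lines give the medians of all peaks (101) and of all peaks within 1 kb of a TSS (116). Most squares lie below the dashed line, with exceptions at Mfn1, Mff and Rhot2.

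By the authors' classes, 14 of the 31 peaks were in promoters (within 3 kb of a TSS) and 14 were distal intergenic. The remaining 3 were intronic. Over the whole list these classes held 24.6%, 31.9% and 38.0% of peaks. Opa1 alone supplied 11 of the 14 distal peaks. Per length of gene body, Rhot2 (46.9 per 100 kb) and Fis1 (38.6) stood above the median of 3.95 over protein-coding genes. The Rhot2 value includes the peak assigned to Rhbdl1, and with its own 2 peaks it was 31.3, below Fis1. Mff (7.27), Mfn1 (6.03) and Rhot1 (5.09) were above it, Dnm1l (2.14) was below, and Mfn2 and Opa1 were at 0.

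Sequence composition was then examined, first for the element through which PARIS has been reported to bind, the insulin response sequence (TATTTTT or TATTTTG, both strands). In the 200 bp summit windows it occurred in 2 of 31 peaks, or 6.45% (exact 95% binomial interval 0.791 to 21.4), against 9.95% of 99705 windows over the list. None of the 11 TSS peaks had it, against 5.40% of all TSS peaks. With so few peaks, 3 counts would be a share of 27.3%, and the exact interval reaches 28.5%. These intervals treat peaks as independent, but several come from the same gene and all peaks of the 8 genes were taken. They describe counting error only. The 2 windows with the sequence belonged to intronic constant-height peaks of Mfn1 and Rhot1. They are shown here as 80 bases around each match with the match in capitals (GRCm38.p6, plus strand).

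Mfn1, chr3:32548203-32548282: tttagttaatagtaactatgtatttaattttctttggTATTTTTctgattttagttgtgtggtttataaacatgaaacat
Rhot1, chr11:80223216-80223295: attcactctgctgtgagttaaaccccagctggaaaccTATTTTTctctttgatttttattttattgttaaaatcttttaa

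The Rhot1 match, at 80223253 to 80223259, lies inside its peak. The Mfn1 match, at 32548240 to 32548246, lies in the window but past the end of the narrow peak. Over whole peaks the sequence was found in 4 of the 31, at Opa1, Rhot1 and 2 peaks of Fis1, 12.9% in all against 17.7% of all whole peaks. It was in none of the 15 summit windows of peaks that were not of constant height, against 2560 of 36568 such windows over the list. Those 15 windows had a mean GC content of 56.6%, while the sequence is rich in A and T. The GC content of the summit windows was 51.9% ± 9.55 (SD over 31 windows) against 49.0% ± 8.92 over the list, and in the 11 TSS peaks 54.8% ± 12.01 against 57.5% ± 10.7. Fis1 had the lowest of these 11, in the peak over its first start, and Mff the highest, at its gene start.

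RefSeq gives 13 promoter windows for the 8 genes, each from 250 bp before to 50 bp after a start. None held the insulin response sequence, which 11.3% of the 32851 RefSeq windows do, and none held the ERR element TCAAGGTCA (0.423% of all windows). A GC box was present in 11 of 13 windows, against 35.7% of all windows, and in at least 1 window of each gene. An ETS core was present in 7 of 13, at Mfn1, Dnm1l, Fis1, Mff and Rhot2, against 16.9%. The NRF1 palindrome was present only at Opa1, against 0.971%. Some windows of the same gene overlap, and GC boxes and ETS cores hold CpG dinucleotides or G and C bases, in which these windows are rich. The insulin response sequence is instead rich in A and T. Median GC content was 60.0% in the 13 windows against 52.7% over all windows, and no allowance was made for this. The ratio of observed to expected CpG had a median of 0.874 in the 13 windows against 0.384 over all windows.

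The promoter windows without a peak were not the poorest in CpG. Those of Mfn2 had ratios of 0.949, 0.874 and 0.874, and that of Opa1 had 0.849, while the Mfn1 window in a peak had 0.523. The lowest ratio, 0.359, was that of the second Fis1 start, all of whose 300 bases lay in a peak.

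**Figure D5:**
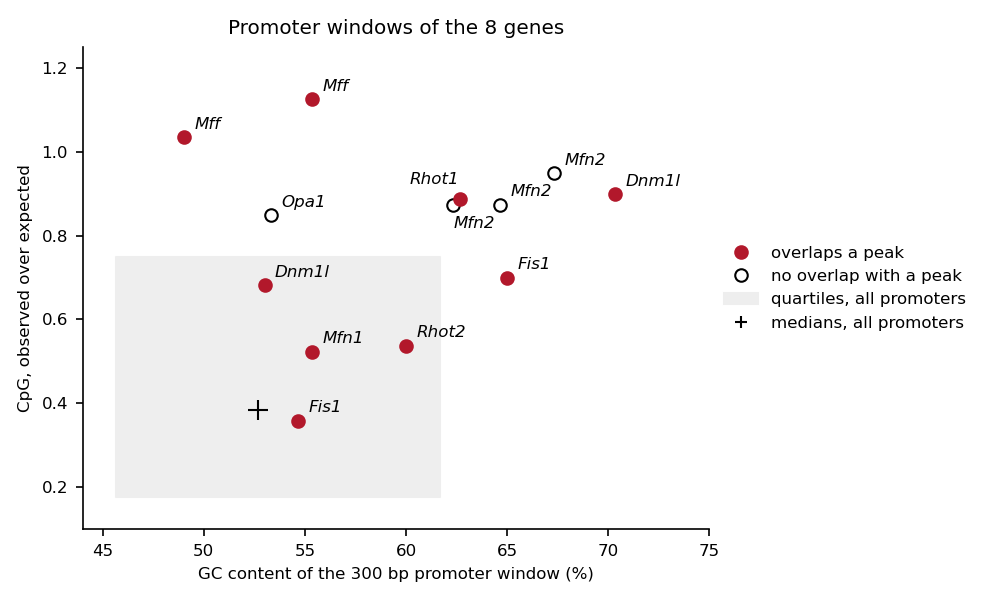
GC content (%) against the observed over expected CpG ratio for the 13 RefSeq promoter windows of the 8 genes, filled where the window overlaps a peak; the grey box spans the quartiles of all 32851 windows and the cross marks their medians. The open circles, Mfn2 and Opa1, lie above the box, and Mfn1, Rhot2, the second Fis1 window and 1 Dnm1l window lie inside it.

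The wider pathway was described through 43 other genes. Of these, 36 had an assigned peak and 26 (60.5%) had one within 1 kb of a TSS, against the 42.4% of all protein-coding genes given above. These 43 genes have a median of 7 TSSs each, but many have fewer than 6, with medians of 5 and 4 in the fusion and fission groups. Genes with at least 6 TSSs are therefore not a matched background for them. Any assigned peak was present in 72.6% of all protein-coding genes and 90.1% of those with at least 6 TSSs. A peak within 1 kb of a TSS was present in 67.0% of the latter. By role, a TSS peak was present in 5 of 10 further fusion genes, 6 of 13 fission genes, 12 of 14 transport and docking genes and 3 of 6 quality control genes. The transport genes are longer than the fusion and fission genes, with median lengths of 45.5, 24.7 and 18.9 kb, and have more TSSs (medians 7.5, 5 and 4). Whether length or TSS number accounts for the higher count was not tested.

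The tallest TSS peaks of the wider list were those of Immt (661, percentile 99.9), Mtfr1l (350), Disc1 (307), Trak1 (273), Phb and Kif1b (both 244). Immt encodes mitofilin, the core of the complex that holds cristae junctions, and its peak was taller than every peak of the 8 genes. Trak1 encodes an adaptor between the Miro proteins and motors, Kif1b a kinesin, Disc1 a scaffold protein and Phb a prohibitin of the inner membrane. No peak was assigned to Yme1l1, the inner-membrane protease that cleaves Opa1, nor to Phb2, Mief2, Mtfr1, March5, Usp30 and Armcx1. Each peak is assigned to 1 gene only: a peak of 190 lay 1 bp from the start of March5, a ubiquitin ligase of the outer membrane, and was given to Cpeb3, and a peak of 42 lay 4 bp from the start of Trak2 and was given to Stradb.

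Marker genes of cell types were also counted. A TSS peak was present for 4 of 5 excitatory neuron markers and 3 of 3 interneuron markers. It was present for 1 of 4 astrocyte, 0 of 4 oligodendrocyte and 1 of 4 microglia markers, and 0 of 4 genes of other organs. The groups hold 3 to 5 genes and were not compared with genes of like length or TSS number, so these counts cannot check the tissue. Over the 20 brain markers this was 9, or 45.0%, near the 42.4% of all protein-coding genes. Any assigned peak was present for 4 of 4 astrocyte, 4 of 4 microglia and 3 of 4 oligodendrocyte markers, so the glial markers did carry peaks away from their TSSs, and for 1 of 4 genes of other organs. Peaks do not measure expression, and the cells behind the peaks of the 8 genes cannot be told from bulk tissue.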

How the data were processed

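CUT&Tag was done on the hippocampus of CamK-PARIS mice with an anti-FLAG and an IgG antibody, 1 library each. By the account in the labels' protocols, the authors used Bowtie2 for alignment to mm10 after trimming, dropped duplicates and reads of low quality, and ran SEACR with IgG as the control; versions and settings are not given in the sources used here. The deposited peak list gives total and maximum signal (coverage) per peak, and the deposited annotation table gives 1 gene and a signed TSS distance per peak, for all but 15 peaks. The IgG library was used only through that peak calling, and signal tracks were not used here.

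From these files, peaks were joined to the annotation and collected by gene symbol with pandas 2.3.3. GENCODE M21 gave gene bodies and TSSs; 98.9% of annotated peaks named an M21 transcript, and 100% of these had the same start and end. The 99707 peaks on assembled nuclear chromosomes all fit the lengths in GRCm38.p6, from which sequence was read with pysam 0.24.0. Depth is unknown, so binomial intervals cover counting error over peaks only. Scripts were tested on simulated peaks. Genes named are the 8 genes, others with a TSS within 1 kb of their TSS peaks, and, of 43 other pathway genes, those with the 5 tallest TSS peaks (ties included) or none; 24 marker genes were also counted. Neighbouring genes that hold or flank a described peak (Plod1, Miip, Atp13a4, Gm49636, Gm26834, Hes1, Rhbdl1, Cpeb3 and Stradb) and Trak2 are named outside this rule and were chosen after their values were seen. The genes, lists and rules were chosen with earlier results of these data known. Constant-height peaks, stricter peak sets, merging, other gene assignments and other TSS distances were tried as alternatives. The classes by TSS number and gene length were added after the data had been seen.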

Additional observations from a re-analysis of the deposited data

How the results depend on the processing

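The 8 results were recomputed under 54 alternatives, 3 of them chosen after seeing the data. Counts within 1.5 times the reported one, and shares within its binomial interval, were taken as unmoved; for the median percentile and GC content any change counted as a move. By this measure 33 alternatives left the value unmoved and 21 moved it. Some could not move: counts of 6 or 7 of 8 genes cannot rise past this limit, so wider TSS distances were bound to leave them unmoved. The binomial interval of the insulin response share, 0.791 to 21.4, is also wide. The tally is therefore not a measure of robustness. A reversal was not defined for these counts, shares and medians. Subsets of the list have fewer peaks by construction; for the other moves the cause was not tested.

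Peaks above the median maximum signal left 12 of the 31 peaks and 3 genes with a TSS peak (30.1% of protein-coding genes). Keeping the top 10% by maximum signal left 2 peaks, 2 genes with a peak, 1 with a TSS peak, and 10 pathway genes with one instead of 26. By this filter 12.7% of protein-coding genes had a TSS peak. The 10% with the highest total signal left 3 peaks, 3 genes, 2 with a TSS peak and 9 pathway genes with one, against 14.1% of protein-coding genes. Without constant-height peaks 15 peaks remained; counting peaks over the gene body and the 3 kb before it gave 18, and with at least 50% of the peak inside the body 16. The 6 genes with a TSS peak were the same within 2 kb and 3 kb, with merged peaks, and by distance to any TSS or to the 5' end of the gene. By the last 2 measures the shares over protein-coding genes were 47.6% and 39.3%, in that order. Mfn1 was lost, leaving 5, with peaks at least 200 bp wide and with at least 50% of the peak inside the body, and Dnm1l was lost without constant-height peaks.

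The median percentile of the highest peak was 78.3 by total signal, 62.03 by signal over width and 54.5 within 5 kb of a TSS. Mean GC content of summit windows moved from 51.9% to 51.06% in 400 bp windows, to 51.87% over whole peaks and to 56.6% without constant-height peaks. That last set had the insulin response sequence in 0% of windows, and 400 bp windows had it in 19.4%, against 19.3% over all peaks. With 1 RefSeq window per gene, 100% held a GC box instead of 84.6%. No paired analysis was possible because each antibody has 1 library.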
